A study of Rattus norvegicus with 12 samples.

Results

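The genes of DNA replication, DNA repair and mitosis were followed in rat chondrocytes stimulated with FGF18, in cells with and without the receptors FGFR3 and FGFR4. They were picked out by symbol, from gene families such as Mcm, Rfc, Rad, Smc, Cdk, Aurk, Kif, Anapc and Cep, among the 1998 of 32754 genes of the count tables whose identifiers could be paired with a symbol. Of these, 71 symbols matched, and 61 genes with at least 60 reads summed over the 12 libraries were kept. The other 10 had between 7 and 59 reads. The families themselves were chosen with earlier results of these data known, so that the counts of members called are a description of a chosen set. Around that limit, Pole2 was inside with 63 reads and Ccng2 with 68, while Kif13a was outside with 59 and Pms2 with 58. The names end with an identifier that falls early in the order of rat genes, so that other members of these families were not analysed here.

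RCS chondrocytes are an established line that came from a chondrosarcoma of the rat. They were used as WT RCS and as FGFR3/4KO RCS, a line grown from 1 clone in which CRISPR/Cas9 disrupted both receptor genes. Both were kept overnight in 5% adult bovine serum, either without or with FGF18. The libraries without FGF18 read untreated in the sample labels and are called vehicle here, as the study names its medium with serum alone. There were 3 biological replicates in each of the 4 groups, and all 4 groups received the same serum. The FGF18 dose is 50 µg/ml in the sample labels and 50 ng/ml in the study's methods. Because FGFR3/4KO is 1 clone, a difference from WT RCS that comes from the receptors and one that comes from the clone cannot be told apart. The transcripts of Fgfr3 and Fgfr4 could not be looked up among the named genes, so that the knockout was not checked in these data.

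A dividing cell copies its DNA once and then shares the copies between its daughters. The MCM helicase is loaded at replication origins and opens the helix, and polymerases with their clamp loader, replication factor C, copy the strands. Cohesin holds the copies together, condensin compacts them, and cyclin-dependent and Aurora kinases drive entry into mitosis. Kinetochores, motors and centrosomes then move the chromosomes, until the anaphase-promoting complex (APC/C) marks mitotic proteins for destruction. Many of these genes are transcribed mainly in cycling cells, where E2F factors act at the start of DNA synthesis and factors at CHR and CCAAT elements act later, toward mitosis. In cartilage, FGF signaling through FGFR3 is known for restraining the proliferation of chondrocytes.

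Levels are given as CPM, the reads of a gene scaled to a common library total after TMM normalization. QuantSeq reads each transcript near its 3′ end, so that these counts do not scale with transcript length. Changes are log2 fold changes ± standard error from edgeR's quasi-likelihood test fitted on 7378 genes, and FDR is the Benjamini-Hochberg adjusted p over all of them. A gene was called when its FDR was under 0.05. In bulk cultures, fewer cycling cells and less of a transcript in each cycling cell cannot be told apart.

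Reads on genes ranged from 373964 in FGFR3/4KO vehicle replicate 2 to 1196647, and 3 reads correspond to 2.51 to 8.02 CPM. The share of reads on genes was 12.5% to 14.5% in the WT libraries and 17.0% to 18.8% in the FGFR3/4KO libraries, and its part in the genotype differences was not tested. Replicates with vehicle were close to each other, with a chi-square over genes of 1.58 to 1.9 times its degrees of freedom. Those with FGF18 were further apart, at 2.06 to 6.25 times. WT FGF18 replicates 1 and 3 differed most from each other (6.25), with replicate 2 at 3.19 and 3.77 from them. FGFR3/4KO FGF18 replicate 1 differed most from the others of its group. This ratio can rise with depth, and reads on genes were 840149 to 1196647 with FGF18 and 373964 to 947730 with vehicle. The part of depth was not tested. Of the chondrocyte markers, Sox9 (1260 to 2060 CPM), Mia (1370 to 2530), Prelp (1290 to 3300) and Col11a2 (602 to 1040) were high in every library, whereas Chad and Epyc did not pass 19.7 CPM in any. The summed chondrocyte markers moved with genotype and with FGF18, down in WT RCS and up in FGFR3/4KO RCS. They were at 6530 to 6850 CPM (WT vehicle), 5920 to 6310 CPM (WT FGF18), 8110 to 8170 CPM (FGFR3/4KO vehicle) and 8410 to 8740 CPM (FGFR3/4KO FGF18), and no 2 groups overlapped. The single markers did not all move the same way in WT RCS. The means of Prelp were 2170 CPM in WT vehicle and 1350 CPM in WT FGF18, and those of Fmod were 447 and 301 CPM. Mia went up, from 1880 to 2430 CPM, as did Chad, from 10.7 to 18.6 CPM. For Sox9 the means were 1440 and 1360 CPM, for Col11a2 701 and 668 CPM, and for Epyc 8.25 and 6.7 CPM. The summed hepatocyte markers moved with the groups at low levels, at 2.0 to 16.3 CPM (WT vehicle), 9.84 to 43.1 CPM (WT FGF18), 27.6 to 36.2 CPM (FGFR3/4KO vehicle) and 0 to 8.29 CPM (FGFR3/4KO FGF18). Alb, the hepatocyte gene with most reads, was at 0 to 28.3 CPM, and Apoh was at 0 in 9 of 12 libraries. The 4 fibroblast or bone markers summed to 15.9 to 32.8 CPM, and the 3 of blood or endothelium to 1.53 to 11.5 CPM. The part of these markers in the results was not tested.

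To see how the replication and mitosis genes respond to FGF18, the WT RCS groups were compared first. FGF18 lowered 24 of the 60 tested members and raised 2. Over all genes tested, 12.8% were called lower and 12.9% higher. The members that fell included the helicase subunits Mcm4 and Mcm6 and the clamp loader subunits Rfc2 and Rfc3. The kinases Cdk1 and Aurkb and the mitotic motors Kifc1 and Kif18a fell too. Falls of these named genes were 1.92-fold for Mcm6 to 3.38-fold for Aurkb, which had 9, 4 and 3 reads in WT FGF18. The smallest fall called among the members was 1.39-fold, for Smc6. The median change of the 60 members was -0.45 on the log2 scale, against 0.02 over all genes tested. The libraries of the WT groups did not overlap and were lower with FGF18 for 29 members, against 19.5% of all genes tested. The reads of all 61 genes together summed to 6310 ± 86.9 CPM (SD, n = 3) with vehicle and to 4510 ± 117 CPM with FGF18. For FGFR3/4KO RCS these sums were 6140 ± 78.9 and 6150 ± 7.75 CPM.

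**Figure D1:**
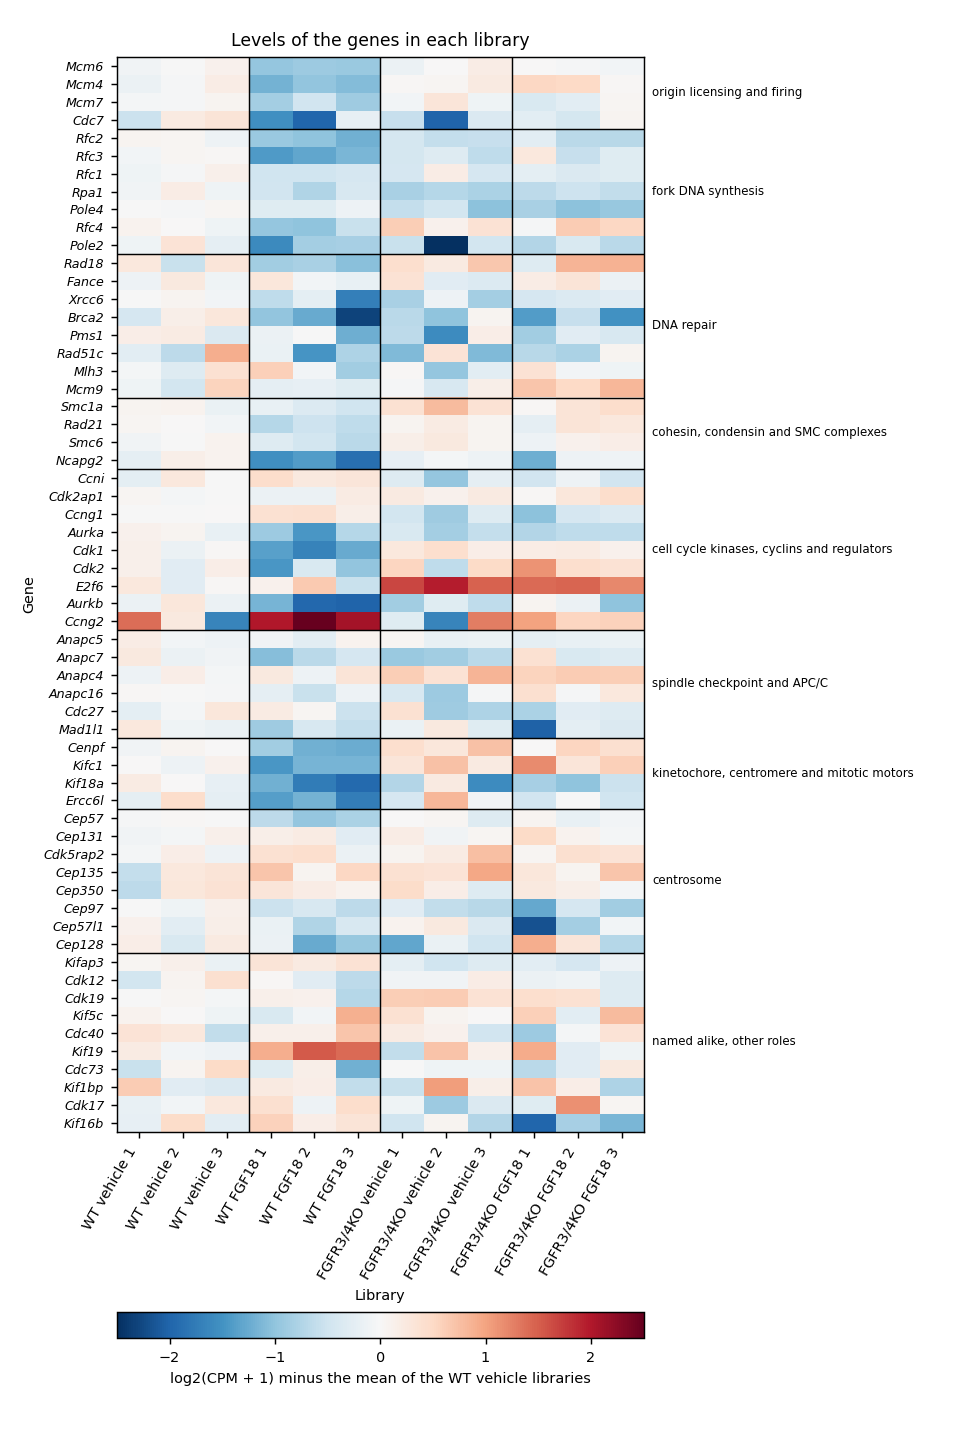
Level of 60 of the 61 genes (rows, by role) in each of the 12 libraries (columns), as log2(CPM + 1) minus the mean of the 3 WT vehicle libraries. Blue is lower and red is higher. The rows of origin, fork, cohesin and kinetochore genes are blue mainly in the 3 WT FGF18 columns. Some of them, among them Rfc2, Rfc3, Rpa1, Pole4, Pole2 and Kif18a, are blue in most FGFR3/4KO columns as well. E2f6 is red in the 6 FGFR3/4KO columns.

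The counts differed between roles. All 4 genes of origin licensing and firing fell, as did 5 of 6 tested genes of DNA synthesis at the fork, 3 of 4 of the cohesin, condensin and SMC complexes, and 4 of 4 of the kinetochore and mitotic motors. Of the cell cycle kinases, cyclins and regulators, 4 of 9 fell and 1 rose. Fewer were called in DNA repair (2 of 9 lower), in the spindle checkpoint and APC/C (1 of 6 lower) and among centrosome genes (1 of 8 lower). Among all genes tested, 12.8% were called lower and 12.9% higher, and the APC/C and centrosome counts are near that share. Of 10 genes whose symbols match but whose known roles lie outside the cell cycle, 1 rose and 0 fell in edgeR's quasi-likelihood test. In that test 2 of the 10 had an unadjusted p under 0.05, against 2668 of the 7378 genes tested. The differences between roles were not tested.

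**Figure D2:**
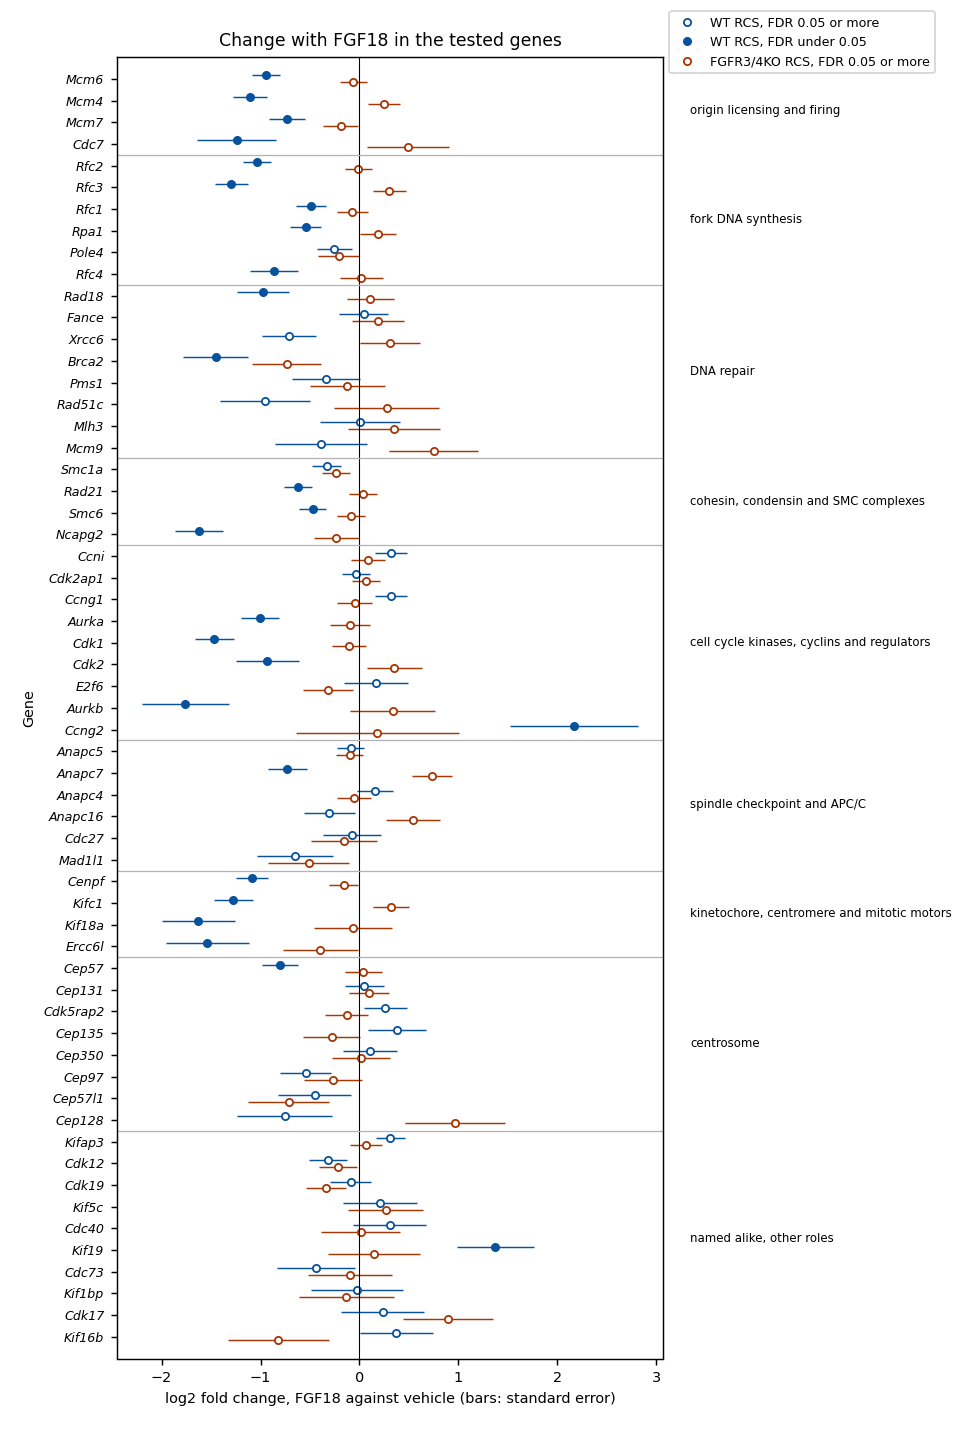
Log2 fold change of FGF18 against vehicle (horizontal axis) for 59 of the 60 tested genes, in WT RCS (blue) and FGFR3/4KO RCS (brown), with bars of 1 standard error and filled points for an FDR under 0.05. The 26 filled points are all in WT RCS, 24 of them left of 0, and the FGFR3/4KO points lie between -0.82 and 0.97.

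Promoters are shown for some of the lowered genes because cell cycle genes are known to share short sequence elements before their starts. The sequences are those of RefSeq (build GRCr8), 250 bases before to 50 bases after each gene's start, which were matched for 51 of the 61 genes by symbol or synonym. Anapc16, Mcm4, Cep135, Kif19, Pms1, Anapc4, Cdk17, Rad21 and Aurkb were among those without a match. Capitals mark, on either strand, the E2F letters (TTTCCCGC, TTTCGCGC, TTTGCCGC or TTTGGCGC), the CHR letters (TTTGAA or TTCGAA) and CCAAT. The 4 first lines are replication and kinase genes that hold E2F letters. Of these, Mcm7, Rfc3 and Cdk1 also hold CHR letters and CCAAT, and Mcm6 also holds CCAAT. The next 2 are mitotic genes that hold CHR letters and CCAAT, and the last, Rfc2, holds none of them. Rfc4, Brca2, Rad18, Ncapg2 and Aurka, which fell as well and are not printed, also hold none. The lowered mitotic motor gene Kif18a, which is not printed, holds E2F letters and neither of the others, so that the lines do not separate replication from mitosis. The regions are chr13:42404303-42404602 (Mcm6, minus strand), chr12:22163129-22163428 (Mcm7, minus strand), chr12:5836318-5836617 (Rfc3, plus strand), chr20:19265043-19265342 (Cdk1, plus strand), chr13:103760837-103761136 (Cenpf, minus strand), chr20:5000679-5000978 (Kifc1, plus strand) and chr12:27769976-27770275 (Rfc2, minus strand). Each is written 5′ to 3′ along the gene.
Mcm6: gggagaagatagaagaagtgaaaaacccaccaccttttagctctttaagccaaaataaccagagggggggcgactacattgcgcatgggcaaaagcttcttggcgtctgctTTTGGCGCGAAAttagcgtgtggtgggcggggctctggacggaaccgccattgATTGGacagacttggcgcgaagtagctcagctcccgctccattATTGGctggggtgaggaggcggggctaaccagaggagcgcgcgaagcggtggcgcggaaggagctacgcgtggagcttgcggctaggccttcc
Mcm7: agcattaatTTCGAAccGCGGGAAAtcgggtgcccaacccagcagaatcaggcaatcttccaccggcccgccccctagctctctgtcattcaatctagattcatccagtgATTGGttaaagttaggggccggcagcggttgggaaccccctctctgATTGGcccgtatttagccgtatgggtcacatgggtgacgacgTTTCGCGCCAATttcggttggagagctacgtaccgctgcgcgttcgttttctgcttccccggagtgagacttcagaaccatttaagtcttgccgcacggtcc
Rfc3: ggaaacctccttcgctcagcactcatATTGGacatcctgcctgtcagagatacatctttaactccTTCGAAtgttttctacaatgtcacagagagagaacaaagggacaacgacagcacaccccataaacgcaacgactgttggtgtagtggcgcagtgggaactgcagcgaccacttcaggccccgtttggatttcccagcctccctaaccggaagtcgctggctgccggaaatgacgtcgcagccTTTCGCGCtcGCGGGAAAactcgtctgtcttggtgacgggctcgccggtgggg
Cdk1: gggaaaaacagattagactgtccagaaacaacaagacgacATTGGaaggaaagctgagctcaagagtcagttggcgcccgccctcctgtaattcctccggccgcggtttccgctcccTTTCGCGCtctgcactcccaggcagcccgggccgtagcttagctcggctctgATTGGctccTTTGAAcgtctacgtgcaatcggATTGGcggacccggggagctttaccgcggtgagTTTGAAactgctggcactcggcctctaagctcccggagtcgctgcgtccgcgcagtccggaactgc
Cenpf: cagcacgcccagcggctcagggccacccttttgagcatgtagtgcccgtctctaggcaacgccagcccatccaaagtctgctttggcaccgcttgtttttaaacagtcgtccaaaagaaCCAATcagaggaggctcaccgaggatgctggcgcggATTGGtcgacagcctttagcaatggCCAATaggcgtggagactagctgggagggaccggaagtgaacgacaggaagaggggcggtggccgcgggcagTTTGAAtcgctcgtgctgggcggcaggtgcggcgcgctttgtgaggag
Kifc1: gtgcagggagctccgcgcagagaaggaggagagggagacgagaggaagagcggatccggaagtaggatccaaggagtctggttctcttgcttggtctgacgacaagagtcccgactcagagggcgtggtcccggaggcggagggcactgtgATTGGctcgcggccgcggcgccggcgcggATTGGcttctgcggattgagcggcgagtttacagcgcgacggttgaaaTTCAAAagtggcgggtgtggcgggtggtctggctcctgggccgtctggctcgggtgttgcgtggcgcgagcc
Rfc2: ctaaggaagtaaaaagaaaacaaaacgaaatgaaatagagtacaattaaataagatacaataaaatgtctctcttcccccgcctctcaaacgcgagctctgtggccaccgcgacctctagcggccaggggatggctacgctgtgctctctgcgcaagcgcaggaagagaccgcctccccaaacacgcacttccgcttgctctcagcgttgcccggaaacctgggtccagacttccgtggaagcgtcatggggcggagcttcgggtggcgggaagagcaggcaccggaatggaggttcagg

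In the Mcm6 line 2 sets of E2F letters overlap, and in the Mcm7 line E2F letters overlap a CCAAT. E2F letters were in 9 of the 51 matched promoters (17.6%) and in 2.25% of all 27457 promoters of the table. The share was 2.82% in the 18999 promoters of protein-coding genes. Among the 21 matched genes that fell in WT RCS, 6 held them (28.6%), namely Mcm6, Mcm7, Rfc3, Cdk1, Smc6 and Kif18a, against 2 of 28 that were not called (7.14%). CHR letters were in 27.5% of the members, in 38.1% of the lowered ones, in 17.9% of those not called and in 19.5% of all promoters. CCAAT was in 47.1%, 52.4%, 46.4% and 37.7% of these sets. Promoters of protein-coding genes held CHR letters in 18.5% and CCAAT in 38.4%. The genes not called include some with roles outside the cell cycle. A match of letters is a description and not a binding site.

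Of the origin genes, Mcm6 and Mcm4 had close replicates in WT RCS, whereas Cdc7 was spread, at 8.2, 5.74 and 22.2 CPM in WT FGF18. Mcm6, a subunit of the replicative helicase, was at 217, 227 and 247 CPM in the WT vehicle libraries and at 117, 122 and 121 CPM with FGF18. The FGF18 libraries all lay below the vehicle libraries, a change of -0.94 ± 0.14 (FDR 9.8e-06). The FGFR3/4KO levels were 208, 232 and 262 CPM with vehicle and 232, 225 and 220 CPM with FGF18, and the groups overlapped. Mcm4, of the same helicase, was at 133, 145 and 168 CPM in WT RCS with vehicle and at 64.8, 74.6 and 69.0 CPM with FGF18, again without overlap, and it fell by 1.11 ± 0.17 on the log2 scale (FDR 1.6e-05). The FGFR3/4KO libraries held 152, 153 and 172 CPM of Mcm4 with vehicle and 212, 208 and 151 CPM with FGF18. Mcm7 fell by 0.73 ± 0.18 (FDR 0.0031). Cdc7, the kinase that fires loaded origins, fell by 1.24 ± 0.40 (FDR 0.023) with overlapping libraries, and its call was lost without WT vehicle replicate 2 or 3 (FDR 0.0774 and 0.131) or without WT FGF18 replicate 1 or 2 (0.0941 and 0.123).

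At the fork, Rfc2 and Rfc3, subunits of the clamp loader, had most reads. Rfc2 was at 542, 536 and 477 CPM with vehicle and at 271, 258 and 225 CPM with FGF18 in WT RCS, a change of -1.04 ± 0.14 (FDR 1.8e-06). Its FGFR3/4KO levels, 383, 343 and 348 CPM with vehicle and 432, 323 and 319 CPM with FGF18, lay between the WT groups. Rfc3 was at 445, 488 and 477 CPM in WT RCS with vehicle and at 175, 190 and 212 CPM with FGF18, and it fell by 1.29 ± 0.16 (FDR 1.1e-06). Rfc3 in FGFR3/4KO RCS was at 345, 377 and 302 CPM with vehicle and at 564, 313 and 382 CPM with FGF18, where replicate 1 was the highest of all 12 libraries. The other clamp loader subunits fell less, Rfc4 by 0.86 ± 0.25 (FDR 0.0099) and Rfc1 by 0.49 ± 0.15 (FDR 0.017), the latter at an FDR of 0.0996 without WT vehicle replicate 3. Rpa1, the large subunit of the protein that coats single-stranded DNA, was at 110, 132 and 108 CPM in WT RCS with vehicle and at 83.6, 68.9 and 87.5 CPM with FGF18, a fall of 0.54 ± 0.16 (FDR 0.013). The FGFR3/4KO libraries had 65.9, 70.8 and 66.8 CPM with vehicle and 73.8, 80.6 and 75.5 CPM with FGF18. The Rpa1 call in WT RCS was lost without WT vehicle replicate 2 (FDR 0.0773) or WT FGF18 replicate 2 (FDR 0.075). Pole4, an accessory subunit of DNA polymerase epsilon, changed by -0.25 ± 0.17 and was not called. Pole2, of the same polymerase, had too few reads to be tested, with 7.99 to 12.2 CPM (WT vehicle) and 2.46 to 4.93 CPM (WT FGF18).

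Among DNA repair genes, Rad18 and Brca2 fell. Rad18, a ubiquitin ligase that acts on the sliding clamp at stalled forks, was at 87, 49 and 89.9 CPM with vehicle and at 39.3, 41.1 and 34.5 CPM with FGF18 in WT RCS. It fell by 0.98 ± 0.27 (FDR 0.0076), and without WT vehicle replicate 3 the FDR was 0.0723. Its FGFR3/4KO levels were 98.1, 85 and 116 CPM with vehicle and 58, 131 and 134 CPM with FGF18, the latter with the widest spread. Brca2, which loads the recombinase in homologous recombination, fell by 1.45 ± 0.33 (FDR 0.0015), from 34.8, 51.7 and 57 CPM to 23, 19.1 and 8.62 CPM. Fance, of the Fanconi core complex, was at 34.8, 44.9 and 35 CPM with vehicle and at 46.7, 36.3 and 33.3 CPM with FGF18 in WT RCS. In FGFR3/4KO RCS it was at 49, 31.2 and 29.6 CPM and at 43.5, 47.9 and 34.1 CPM. These Fance libraries overlapped in both genotypes, with changes of 0.04 ± 0.25 and 0.18 ± 0.26. Xrcc6, a subunit of the Ku end-binding protein, changed by -0.71 ± 0.28 (FDR 0.057) and Rad51c, a recombinase paralog, by -0.96 ± 0.45 (FDR 0.13). The mismatch repair genes Pms1 and Mlh3 and the helicase Mcm9 lay between -0.39 and 0.01, with standard errors of 0.34 to 0.47, so that small changes were not detectable at their depth of 95 to 232 reads.

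Changes of the cohesin, condensin and SMC genes ran from -0.33 to -1.62 in WT RCS. Smc1a, a core cohesin subunit, had most reads of all members and was at 388, 397 and 332 CPM in WT RCS with vehicle and at 327, 293 and 264 CPM with FGF18. The WT groups did not overlap, but the change of -0.33 ± 0.14 was not called (FDR 0.095). FGFR3/4KO libraries held 484, 640 and 479 CPM of Smc1a with vehicle and 378, 462 and 504 CPM with FGF18. Rad21, the cohesin subunit that separase cuts, was at 388, 375 and 358 CPM in WT RCS with vehicle and at 229, 259 and 239 CPM with FGF18, a fall of 0.62 ± 0.14 (FDR 0.0014). Rad21 in FGFR3/4KO RCS was at 391, 428 and 392 CPM with vehicle and at 318, 468 and 446 CPM with FGF18. Ncapg2, a subunit of condensin II, fell by 1.62 ± 0.24 (FDR 1.1e-05), from 72.5, 93.8 and 89.9 CPM to 28.7, 31.6 and 22.2 CPM. Its FGFR3/4KO levels were 73.5, 82.1 and 77.8 CPM with vehicle and 35.6, 78 and 78.3 CPM with FGF18, so that only replicate 1 was low. Smc6, of the SMC5/6 complex, fell by 0.47 ± 0.14 (FDR 0.012), and without WT vehicle replicate 3 its FDR was 0.071.

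The cell cycle kinases fell together, while the cyclins here, which are atypical ones, did not. Cdk1, the kinase of mitotic entry, was at 82.6, 68 and 76.9 CPM in WT RCS with vehicle and at 28.7, 23 and 30.8 CPM with FGF18. The change was -1.47 ± 0.20 (FDR 2.2e-06). Its FGFR3/4KO libraries held 90.4, 102 and 85.5 CPM with vehicle and 85.7, 87.7 and 81.1 CPM with FGF18, a narrow range above all 6 WT libraries but for WT vehicle replicate 1. Cdk2, the kinase of the entry into DNA synthesis, was at 43.5, 32.6 and 45 CPM with vehicle and at 13.9, 30.6 and 19.7 CPM with FGF18 in WT RCS. It fell by 0.93 ± 0.31 (FDR 0.030), but the call was lost without WT vehicle replicate 1 or 3 (FDR 0.0799 and 0.127) or WT FGF18 replicate 1 or 3 (0.149 and 0.0548). Cdk2 in FGFR3/4KO RCS was at 58.2, 25.5 and 55.9 CPM with vehicle and at 88.3, 54.1 and 51.6 CPM with FGF18. Aurkb, the kinase of the chromosomal passenger complex, was the member that fell most, by 1.76 ± 0.44 (FDR 0.0039), from 15.9, 21.8 and 16 CPM to 7.38, 3.83 and 3.7 CPM. These Aurkb levels are near what a few reads can show, and its FGFR3/4KO levels were 9.19, 14.2 and 11 CPM with vehicle and 18.5, 16 and 8.29 CPM with FGF18. Aurka, which acts at spindle poles, fell by 1.01 ± 0.19 (FDR 0.00023).

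Ccng2, which encodes cyclin G2, a cyclin known from cells that leave the cycle, was 1 of the 2 members that rose. It was at 7.25, 2.72 and 0 CPM in WT RCS with vehicle and at 11.5, 17.2 and 12.3 CPM with FGF18, a change of 2.17 ± 0.65 (FDR 0.014). In FGFR3/4KO RCS it was at 1.53, 0 and 6.58 CPM with vehicle and at 5.27, 3.55 and 3.68 CPM with FGF18. The call was lost without WT vehicle replicate 2 (FDR 0.0582) or 3 (FDR 0.136), and without WT FGF18 replicate 2 the gene no longer had enough reads to be tested. The other cyclins were more abundant. Ccni, cyclin I, was at 236, 333 and 275 CPM in WT RCS with vehicle and at 378, 328 and 346 CPM with FGF18, with overlap, and at 224, 142 and 238 CPM and 200, 255 and 201 CPM in FGFR3/4KO RCS. Its change in WT RCS was 0.32 ± 0.16 (FDR 0.15), and that of Ccng1, cyclin G1, was 0.32 ± 0.16 (FDR 0.16). Cdk2ap1, a CDK2-associated protein, was at 233, 218 and 224 CPM with vehicle and at 202, 202 and 258 CPM with FGF18 in WT RCS. The FGFR3/4KO libraries held 264, 244 and 263 CPM and 229, 273 and 306 CPM. Its groups overlapped in both genotypes. E2f6, a repressor of the E2F family, changed by 0.17 ± 0.32 in WT RCS.

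Among subunits of the APC/C, 1 fell. Anapc7 was at 230, 174 and 182 CPM in WT RCS with vehicle and at 91.8, 121 and 144 CPM with FGF18, a change of -0.73 ± 0.19 (FDR 0.0059). In FGFR3/4KO RCS it was at 101, 105 and 121 CPM with vehicle and at 253, 148 and 155 CPM with FGF18, so that the FGF18 libraries were all above the vehicle libraries there. That difference, 0.73 ± 0.20, was not called (FDR 0.62, unadjusted p 0.00126). Anapc5, of the same complex, was at 364, 306 and 291 CPM and 298, 265 and 339 CPM in WT RCS without and with FGF18. FGFR3/4KO libraries held 332, 280 and 283 CPM and 272, 282 and 285 CPM. Its changes were -0.09 ± 0.13 and -0.10 ± 0.14. Anapc4, Anapc16, Cdc27 and the checkpoint gene Mad1l1 were not called, with changes of 0.16, -0.30, -0.08 and -0.65 in WT RCS.

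The 4 genes of kinetochores and mitotic motors all fell. Cenpf, a large protein of the outer kinetochore, was at 271, 301 and 291 CPM in WT RCS with vehicle and at 157, 125 and 121 CPM with FGF18, a change of -1.09 ± 0.16 (FDR 9.1e-06). Its FGFR3/4KO levels were 385, 348 and 479 CPM with vehicle and 291, 420 and 380 CPM with FGF18. Kifc1, a minus-end motor that bundles spindle poles, was at 177, 162 and 190 CPM in WT RCS with vehicle and at 63.9, 78.4 and 77.6 CPM with FGF18, a change of -1.27 ± 0.20 (FDR 2.1e-05). The FGFR3/4KO libraries held 218, 295 and 207 CPM of Kifc1 with vehicle and 401, 218 and 267 CPM with FGF18, all above every WT library. Kif18a, a motor that aligns chromosomes, fell by 1.63 ± 0.37 (FDR 0.0015), from 36.2, 31.3 and 27 CPM to 13.1, 8.61 and 7.39 CPM. Its FGFR3/4KO levels, 18.4, 36.8 and 9.86 CPM with vehicle and 17.1, 15.1 and 21.2 CPM with FGF18, were widely spread with vehicle. Ercc6l, a translocase of anaphase bridges, fell by 1.54 ± 0.42 (FDR 0.007), and without WT vehicle replicate 2 its FDR was 0.054.

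**Figure D3:**
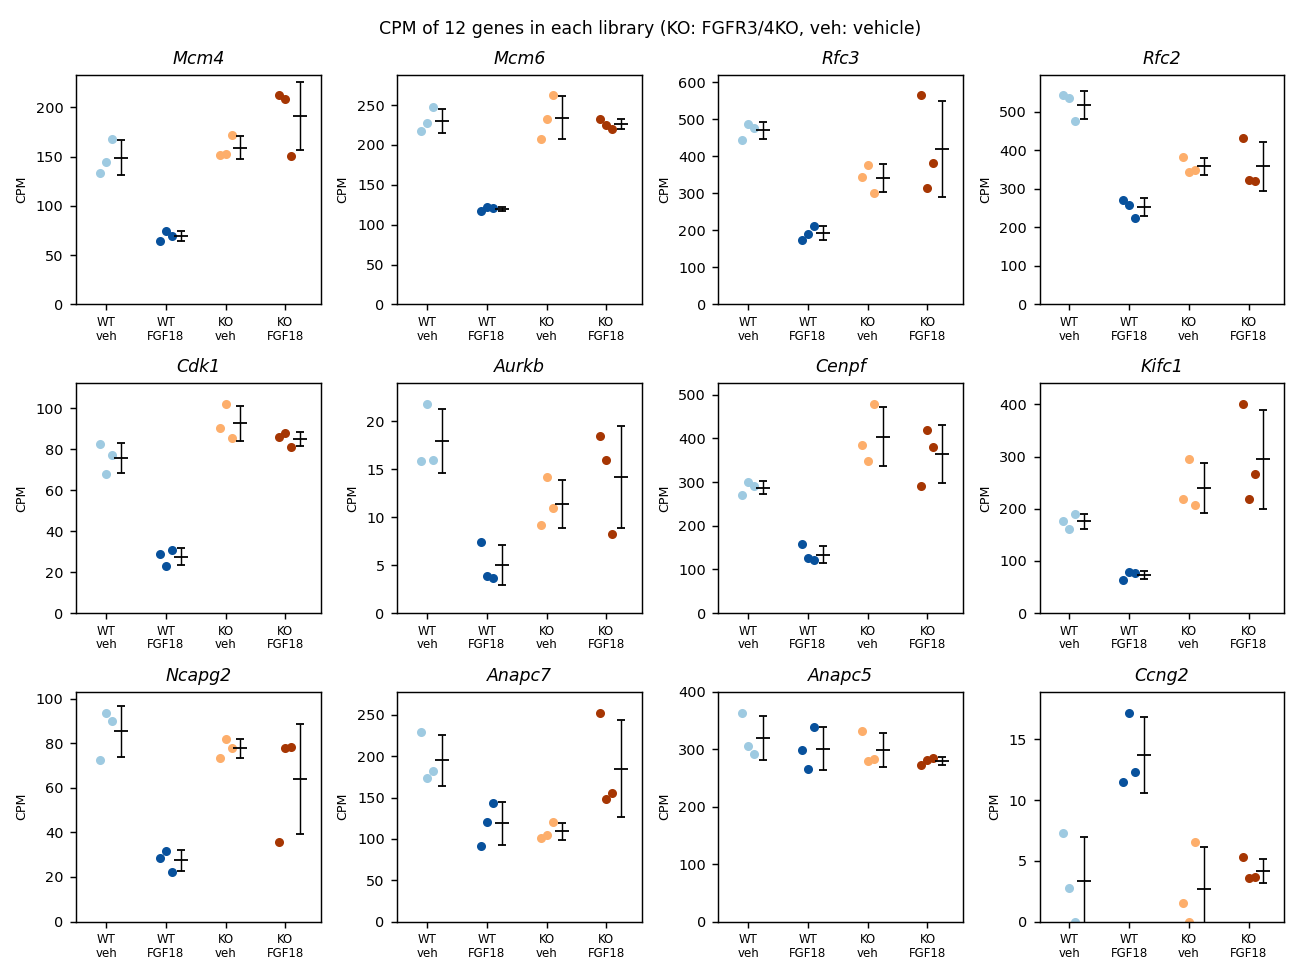
CPM (vertical axis, from 0) of 12 members in each library (points), by genotype and treatment, with the mean and SD of each group of 3 beside them (black; SD bars that would pass below 0 are cut at the axis). The WT FGF18 points lie below the WT vehicle points for every gene drawn except Anapc5, whose groups overlap, and Ccng2, where they lie above.

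Of 8 centrosome genes, Cep57, which helps organize microtubules at centrioles, fell. It was at 75.4, 78.9 and 76.9 CPM in WT RCS with vehicle and at 48.4, 39.2 and 44.4 CPM with FGF18, a change of -0.80 ± 0.18 (FDR 0.0017). In FGFR3/4KO RCS it was at 78.1, 79.3 and 61.4 CPM with vehicle and at 80.4, 67.4 and 73.7 CPM with FGF18. Cep131, a protein of centriolar satellites, overlapped between all groups, at 56.5, 58.5 and 66 CPM (WT vehicle), 67.2, 69.8 and 49.3 CPM (WT FGF18), 68.9, 56.7 and 62.5 CPM (FGFR3/4KO vehicle) and 84.4, 63.8 and 58 CPM (FGFR3/4KO FGF18). Cdk5rap2, Cep135, Cep350, Cep97, Cep57l1 and Cep128 lay between -0.76 and 0.38 in WT RCS and were not called.

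The 10 members with roles outside the cell cycle included Kif19, a microtubule-depolymerizing kinesin of cilia, which rose by 1.37 ± 0.39 (FDR 0.0093), from 11.6, 9.52 and 8.99 CPM to 19.7, 30.6 and 28.3 CPM. It was at 6.13, 17 and 11 CPM with vehicle and at 19.8, 7.98 and 9.21 CPM with FGF18 in FGFR3/4KO RCS, and its call in WT RCS was lost without WT vehicle replicate 3 (FDR 0.0559) or WT FGF18 replicate 2 (FDR 0.0536). Kifap3, of the kinesin-2 motor, was at 155, 162 and 132 CPM and 187, 175 and 193 CPM in WT RCS without and with FGF18, and at 126, 105 and 119 CPM and 124, 111 and 136 CPM in FGFR3/4KO RCS. The WT groups of Kifap3 did not overlap, but its change of 0.31 ± 0.15 was not called (FDR 0.12). Cdk12, a kinase of transcription elongation, was at 106, 155 and 193 CPM and 149, 121 and 93.6 CPM in WT RCS without and with FGF18. For FGFR3/4KO RCS the values were 138, 139 and 168 CPM and 132, 137 and 117 CPM. Its WT groups overlapped. Cdk17, Cdk19, Cdc40, Cdc73, Kif5c, Kif1bp and Kif16b were not called in WT RCS, with changes of -0.44 to 0.37.

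To see whether the response needs the receptors, the same comparison was made in FGFR3/4KO RCS. In edgeR's quasi-likelihood test 0 of 60 members were called in either direction, as were 0% of all genes tested in each direction. An unadjusted p under 0.05 was given to 2 members, Anapc7 and Brca2 (-0.74 ± 0.35, p 0.0425), and to 478 of all genes tested. DESeq2 and the likelihood-ratio test also called 0 members, whereas without a filter on low counts Anapc7 was called, the only member. The median change was -0.03, with 31 members below 0 and 29 above, against 0.01 over all genes tested. Libraries did not overlap for 3 members lower and 4 higher with FGF18, against 6.29% and 6.38% of all genes tested. The standard error of a change here was 0.14 for Mcm6 and 0.82 for Ccng2, so that small changes of the genes with few reads were not detectable.

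The difference between the responses of the genotypes, the FGF18 effect in FGFR3/4KO RCS minus that in WT RCS, was tested as an interaction. Of 60 members, 16 were called, all with a value above 0, against 5.91% of all genes tested above 0 and 4.96% below. Since this value shares its libraries with both comparisons above, the counts are not independent of them. All 16 had fallen in WT RCS. The 3 largest were Aurkb (2.09 ± 0.62, FDR 0.027), Rfc3 (1.60 ± 0.23, FDR 3e-05) and Kifc1 (1.59 ± 0.27, FDR 0.00019). Anapc7 had a value of 1.46 ± 0.28 (FDR 0.00077), in which its fall in WT RCS and its higher levels in FGFR3/4KO RCS add up. Replication genes called were Mcm6 (0.88 ± 0.19), Mcm4 (1.36 ± 0.23), Rfc2 (1.03 ± 0.19) and Rpa1 (0.73 ± 0.24), and Rad18 was the DNA repair gene called (1.08 ± 0.36). Genes of mitosis called were Cdk1 (1.36 ± 0.26), Ncapg2 (1.38 ± 0.33), Rad21 (0.66 ± 0.20), Aurka (0.91 ± 0.28), Cenpf (0.93 ± 0.22) and Cep57 (0.84 ± 0.26), and Cdk2 had 1.28 ± 0.42. Brca2 (0.72 ± 0.48), Kif18a (1.57 ± 0.54), Ercc6l (1.14 ± 0.57), Cdc7 (1.73 ± 0.58), Mcm7 (0.54 ± 0.25), Rfc4 (0.88 ± 0.33), Rfc1 (0.42 ± 0.22) and Smc6 (0.39 ± 0.20), which had fallen in WT RCS, were not called here, with FDRs of 0.053 to 0.4. Between 10 and 16 members were called when 1 library was left out, with 10 without WT vehicle replicate 2 or FGFR3/4KO vehicle replicate 3, 15 without FGFR3/4KO FGF18 replicate 1 and 16 without WT FGF18 replicate 3. Mcm6, Mcm4, Rfc2, Rfc3, Ncapg2, Cdk1, Anapc7, Cenpf and Kifc1 were called in each of these fits.

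**Figure D4:**
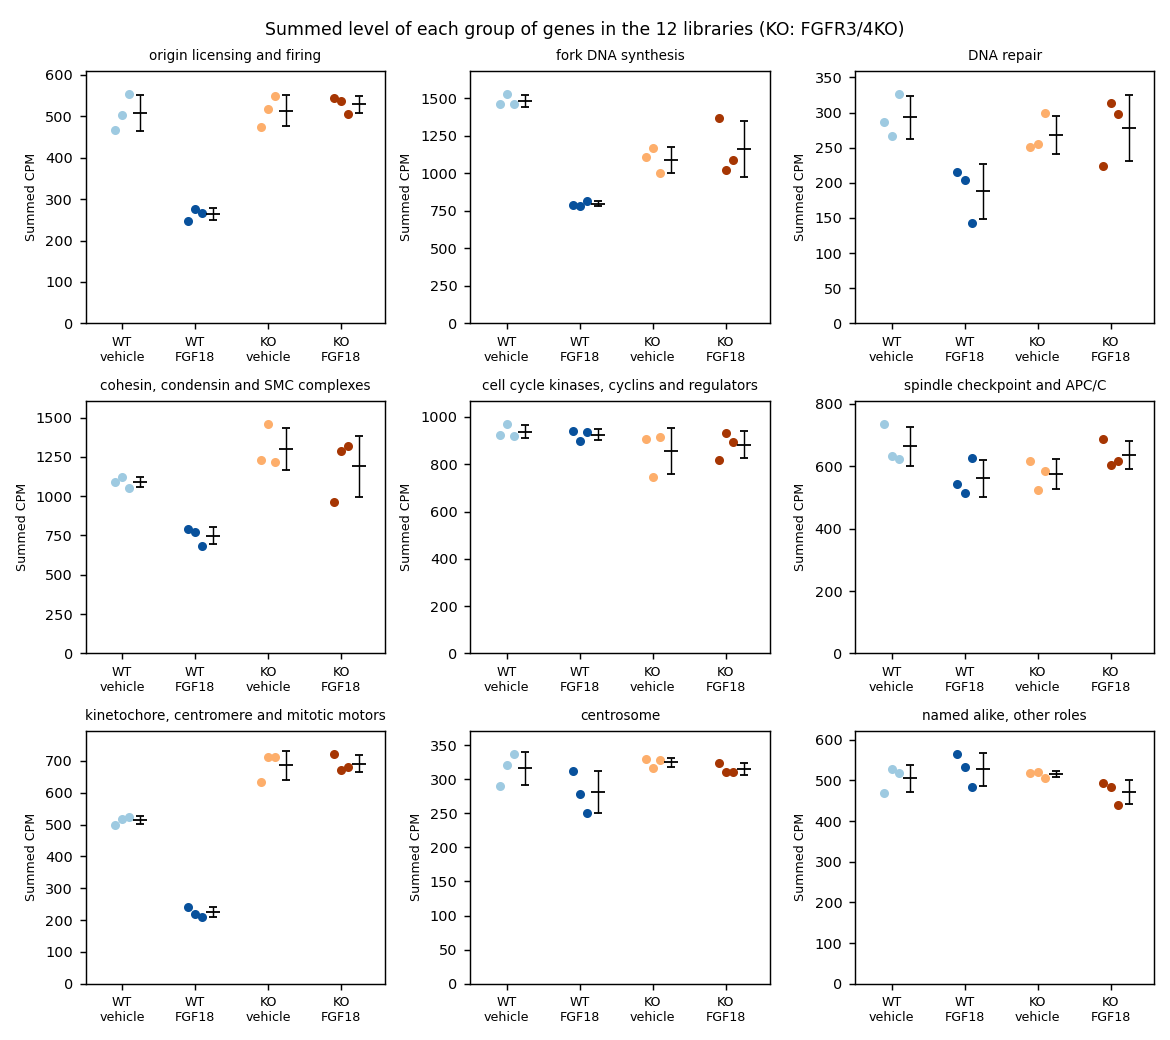
Summed CPM (vertical axis, from 0) of the genes of each role in each of the 12 libraries (points), with the mean and SD of each group of 3 beside them (black). Origin genes were at 509 ± 43.5 CPM in WT vehicle, 264 ± 15.2 in WT FGF18, 514 ± 37.2 in FGFR3/4KO vehicle and 529 ± 21.3 in FGFR3/4KO FGF18. Kinetochore and motor genes were at 514 ± 12.6, 224 ± 15.5, 687 ± 45.8 and 692 ± 27 CPM. Other roles moved little in WT RCS. Kinases, cyclins and regulators summed to 938 ± 28.4 CPM with vehicle and 925 ± 22.7 with FGF18. Centrosome genes were at 316 ± 23.9 and 281 ± 31.1 CPM, and genes named alike with other roles at 505 ± 32.6 and 527 ± 40.5 CPM.

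Without FGF18, the genotypes differed in few members, a share near that of all genes tested. In FGFR3/4KO RCS with vehicle 4 members were lower and 4 higher than in WT RCS, against 6.07% and 8% of all genes tested. The median difference was -0.10, against -0.01 over all genes tested. E2f6 differed most, at 20.3, 13.6 and 17 CPM in WT RCS and 55.2, 68 and 48.2 CPM in FGFR3/4KO RCS, a difference of 1.70 ± 0.30 (FDR 0.0002). With FGF18 its levels were 18, 26.8 and 11.1 CPM in WT RCS and 46.1, 47.9 and 39.6 CPM in FGFR3/4KO RCS, so that the genotypes did not overlap under either treatment. Anapc4 (0.67 ± 0.19) rested on 58, 72.1 and 62 CPM in WT RCS against 98.1, 82.1 and 116 CPM. Its libraries with FGF18 held 76.2, 58.3 and 80.1 CPM in WT RCS and 94.9, 100 and 97.6 CPM in FGFR3/4KO RCS. Smc1a (0.51 ± 0.14) and Cenpf (0.51 ± 0.15) were also higher. Anapc7 (-0.83 ± 0.21), Rpa1 (-0.79 ± 0.18), Pole4 (-0.74 ± 0.20) and Rfc2 (-0.53 ± 0.14) were lower. Pole4 was at 85.5, 84.3 and 88.9 CPM in WT RCS and 56.7, 62.3 and 41.6 CPM in FGFR3/4KO RCS with vehicle, and at 69.7, 69.8 and 78.9 CPM against 48.8, 41.7 and 44.2 CPM with FGF18. Anapc7, Rpa1 and E2f6 were called whichever library was left out. The others were not, with FDRs of 0.0538 (Rfc2) and 0.117 (Pole4) without FGFR3/4KO vehicle replicate 3, 0.107 and 0.118 (Smc1a) without WT vehicle replicate 3 or FGFR3/4KO vehicle replicate 2, 0.0646 to 0.142 (Anapc4) without WT vehicle replicate 1 or 3 or FGFR3/4KO vehicle replicate 3, and 0.0512 to 0.208 (Cenpf) when any of the 3 WT vehicle libraries or FGFR3/4KO vehicle replicate 1 or 3 was left out.

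With FGF18, more members differed between the genotypes. FGFR3/4KO RCS had higher levels of 21 members and lower levels of 7, against 16.9% and 17% of all genes tested. The median difference was 0.30, against -0.03 over all genes tested. This comparison uses the same WT FGF18 libraries as the first one and the same FGFR3/4KO FGF18 libraries as the second. Kifc1 was higher by 2.0 ± 0.19 (FDR 6.8e-09), Cdk1 by 1.63 ± 0.19 (FDR 1.8e-07) and Cdk2 by 1.57 ± 0.29 (FDR 0.00013). Of replication genes, Mcm4 (1.45), Rfc4 (1.30), Rfc3 (1.12), Mcm6 (0.91), Mcm7 (0.56) and Rfc2 (0.50) were higher. Rad18 (1.51), Cenpf (1.43), Aurkb (1.41), Ncapg2 (1.24), E2f6 (1.22), Ercc6l (1.20), Rad21 (0.77), Cep57 (0.73), Anapc7 (0.64), Smc1a (0.60), Smc6 (0.53) and Anapc4 (0.45) were higher too. The falls in WT RCS of Rpa1, Aurka, Brca2, Kif18a, Cdc7 and Rfc1 were not matched by a call here, with values of -0.05 ± 0.16, 0.34 ± 0.20, 0.30 ± 0.36, 0.83 ± 0.39, 0.97 ± 0.40 and 0.18 ± 0.15.

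**Figure D5:**
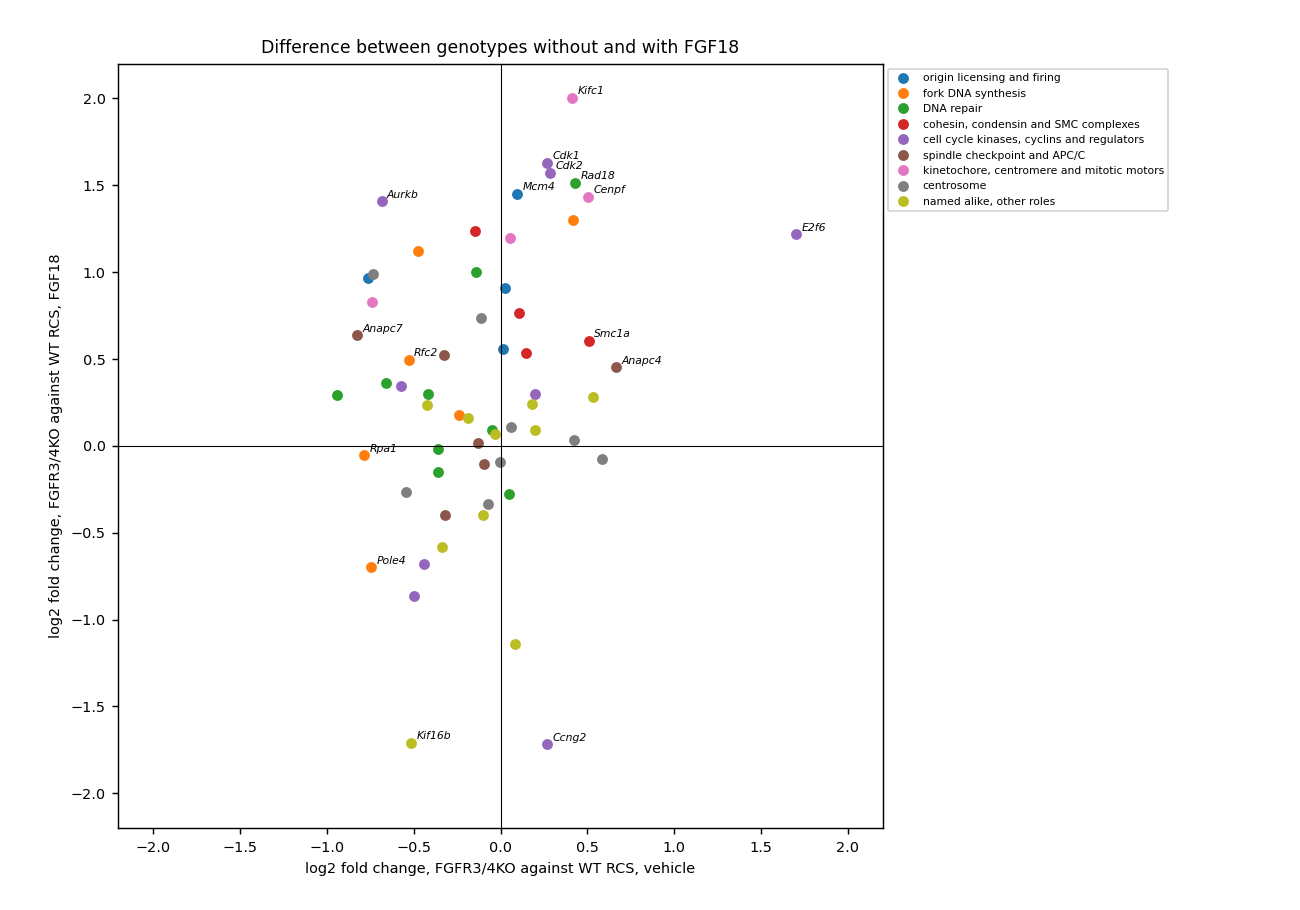
Log2 fold change of FGFR3/4KO against WT RCS with vehicle (horizontal axis) and with FGF18 (vertical axis) for the 60 tested genes, coloured by role. Each axis uses its own 6 libraries, and 42 of the 60 points lie above 0 on the vertical axis, against 25 to the right of 0 on the horizontal axis.

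The 7 members that were lower in FGFR3/4KO RCS with FGF18 are a smaller share than the 17% of all genes tested. They were 3 cyclins, 3 kinesin genes and Pole4, and the kinesin genes are of the members with roles outside the cell cycle. Ccng2 (-1.72 ± 0.58, FDR 0.022) and Kif19 (-1.14 ± 0.36, FDR 0.016) are the genes that rose in WT RCS. Kif16b, a motor of early endosomes, was lower by 1.71 ± 0.42 on the log2 scale (FDR 0.0023), with 20.5, 15.3 and 17.2 CPM in WT RCS and 2.64, 7.09 and 5.53 CPM in FGFR3/4KO RCS. With vehicle, Kif16b was at 11.6, 19 and 11 CPM in WT RCS, against 9.19, 14.2 and 7.67 CPM in the knockout, and the genotypes overlapped. Ccng1 (-0.87), Pole4 (-0.70), Ccni (-0.68) and Kifap3 (-0.58) were lower as well. When 1 library was left out, Mcm7, Aurkb, Ccng2, Anapc7, Anapc4, Ercc6l and Kif19 lost their calls in some fits, with FDRs of 0.0504 to 0.171. Anapc7 did so without WT FGF18 replicate 1 (FDR 0.0746) or FGFR3/4KO FGF18 replicate 1 (FDR 0.0821), the library in which it was highest. Ccng2 and Ercc6l also lost their calls with DESeq2. Anapc4 was also not called with upper-quartile normalization, DESeq2, only the groups compared, the replicate block or no filter on low counts.

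To place these genes, 69 further named genes of replication, repair, mitosis and cell cycle control outside the chosen families were counted, from lists likewise chosen with earlier results known. Of the 53 that could be tested, 25 fell and 4 rose with FGF18 in WT RCS, at a median change of -0.55, against 0.02 for the same genes in FGFR3/4KO RCS. Over all genes tested, the called shares in WT RCS were 12.8% lower and 12.9% higher. Among genes of replication and chromatin assembly 8 of 13 fell, with a median of -0.72. Ezh2, a histone methyltransferase, fell by 1.11 ± 0.14, from 381, 379 and 430 CPM to 213, 195 and 138 CPM, and the histone chaperone Rbbp7 by 0.60 ± 0.16, while the kinase Tlk2 changed by -0.09 ± 0.17. Of 16 mitosis genes 10 fell and 1, Tubg2, rose (0.89 ± 0.28), with a median of -0.94. Pttg1, securin, fell by 0.95 ± 0.17, Ran, the GTPase of spindle assembly, by 0.78 ± 0.12, and the kinetochore gene Spc25 by 1.51 ± 0.15, from 277, 247 and 234 CPM to 89.4, 84.2 and 92.4 CPM. Of 10 tested genes of repair and recombination 3 fell, among them Parp1 (-0.41 ± 0.14) and Parpbp (-1.28 ± 0.22), and Top3b changed by 0.34 ± 0.19. The median of these 10 was -0.08.

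Transcription factors and inhibitors of the cycle moved in both directions, with 4 of 14 lower and 3 higher in WT RCS. Foxm1, a transcription factor of mitotic genes, fell by 1.86 ± 0.19, and the inhibitor Cdkn2b rose by 3.73 ± 0.22, from 31.9, 32.6 and 21 CPM to 293, 343 and 485 CPM. Btg1, an antiproliferative gene, rose by 1.61 ± 0.15 and Gadd45a, a stress gene, by 1.67 ± 0.20. The inhibitor Cdkn1a fell, by 0.55 ± 0.14, from 300, 257 and 235 CPM to 190, 172 and 175 CPM, while Mdm2 changed by -0.02 ± 0.17. Interactions were called for 15 of the 53 related genes above 0 and for 3 below, the latter being Cdkn2b, Btg1 and Gadd45a. All genes tested had 5.91% called above 0 and 4.96% below, and the 3 genes below 0 are a share near that background.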

How the data were processed

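QuantSeq 3′ mRNA libraries of RCS chondrocytes were made from 100 ng of total RNA and sequenced on a NextSeq 500, with 12 libraries in 4 groups of 3 taken from the sample labels. The authors trimmed reads with Trim Galore, aligned them with STAR to rn6 and used htseq-count to assign them to genes. What the authors deposited is the raw count of reads on each gene, with 1 file a library. Versions are not given in the sources used here. The methods name Gencode v19, while the identifiers are rat Ensembl genes. The classes of uncounted reads were left out of library totals, and reads of low alignment quality made up 71.2% to 79.8% of all reads, so that genes with near-identical copies may be undercounted.

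Symbols came from the 1998 identifier and symbol pairs used of the study's supplementary table. Symbols that begin with Cdc42 were left out. The values of 1 member, which is counted, are not reported here. The members, their roles and the related lists were chosen with earlier results of these data known. Values in each library are given for the 2 tested members of highest mean CPM in each role and for the 3 largest rises and falls called in each comparison, and for Brca2, which was added after its values were seen. Other called members are named with their change, and the 3 related genes of highest mean CPM in each list with theirs. Tubg2, Foxm1, Cdkn2b and Gadd45a were named after their values were seen.

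Genes were kept by filterByExpr (minimum count 10, minimum total 15), normalized by TMM, and fitted with edgeR 4.0.16 in R 4.3.3 on all 12 libraries with a mean per group, by quasi-likelihood tests with Benjamini-Hochberg adjustment over 7378 genes and a threshold of 0.05. Standard errors were derived from the fold change and the F statistic of the test (change over root of F). The script was tested on simulated data. The smallest amount that 3 reads show, 2.51 to 8.02 CPM, covers counting error only. Alternatives were DESeq2 1.42.0, edgeR's likelihood-ratio test, upper-quartile normalization, no filter, a filter of 1 CPM in 3 libraries, a replicate block, only the groups compared, and leaving out each library. Promoter letters were searched in RefSeq sequences (GRCr8) on both strands. Figures were drawn with matplotlib 3.10.9.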

Additional observations from a re-analysis of the deposited data

Results flagged for a closer look

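The response to FGF18 differed between WT RCS and FGFR3/4KO RCS, by the interaction test, for 16 members, each of which had fallen in WT RCS and was not called in FGFR3/4KO RCS. The values, as the log2 change in FGFR3/4KO RCS minus that in WT RCS, were 0.88 for Mcm6, 1.36 for Mcm4, 1.03 for Rfc2, 1.60 for Rfc3, 0.73 for Rpa1 and 1.08 for Rad18. They were 0.66 for Rad21, 1.38 for Ncapg2, 0.91 for Aurka, 1.36 for Cdk1, 1.28 for Cdk2 and 2.09 for Aurkb. They were 1.46 for Anapc7, 0.93 for Cenpf, 1.59 for Kifc1 and 0.84 for Cep57. Rpa1, Rad18, Rad21, Aurka, Cdk2, Aurkb and Cep57 each lost the call when some single library was left out, in 5 to 9 of the 12 fits, with FDRs of 0.0512 to 0.17. With DESeq2, 6 of these 7 lost the call, all but Rad21. Rpa1 and Rad18 also lost it with upper-quartile normalization, Rpa1 and Cep57 without a filter on low counts, and Rpa1 with the filter of 1 CPM in 3 libraries.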

How the results depend on the processing

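Across 19 alternative settings 0 called members reversed their direction. The calls that held in every alternative were 17 of 26 for FGF18 in WT RCS, 9 of 16 for the interaction, 3 of 8 for the genotypes with vehicle and 21 of 28 for the genotypes with FGF18. With DESeq2 the interaction called 10 members in place of 16. The members lower in FGFR3/4KO RCS with vehicle, 4 in the model reported, were 7 with the likelihood-ratio test, 7 with upper-quartile normalization and 8 with only the groups compared. Without a filter on low counts 1 member, Anapc7, was higher with FGF18 in FGFR3/4KO RCS. The causes were not tested. With each library left out in turn, 19 to 26 members fell and 0 to 2 rose in WT RCS, with 0 risen without WT vehicle replicate 3 or WT FGF18 replicate 2 and 1 without WT vehicle replicate 2. The interaction then had 10 to 16 calls, the genotypes with vehicle 2 to 7 lower and 1 to 5 higher, and the genotypes with FGF18 5 to 7 lower and 18 to 22 higher. For the genotypes with vehicle, 7 were lower without WT FGF18 replicate 3 or FGFR3/4KO FGF18 replicate 1, 2 were lower and 2 higher without FGFR3/4KO vehicle replicate 3, 2 were higher without WT vehicle replicate 1, and 1 was higher without WT vehicle replicate 3. The interaction could not be fitted with only the groups compared, since it uses all 4.

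Same-numbered libraries did not visibly deviate together (mean correlation -0.03 over 18 pairs, from -0.21 to 0.05). Pairs with different numbers had a mean of 0.015 over 36 pairs, from -0.114 to 0.194. Counting error is large at this depth, so that a weak pairing by number could not be seen. The replicate block gave 25 lower and 2 higher in WT RCS, 0 in FGFR3/4KO RCS, 14 for the interaction (Rpa1, Rad18 and Cdk2 no longer among them), 4 and 4 with vehicle, and 7 and 20 with FGF18. Depth limits the genes with few reads, such as Mlh3 (127 reads, standard error 0.41 in WT RCS).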
